A study of Mus musculus with 18 samples.

Results

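The kidneys described here are those of mice that had lost *Myc* in the tubule cells and those of their floxed controls, 10 of the 18 kidneys sequenced. They were taken by the genotype given in the sample labels, 5 *Myc* KO and 5 *Myc* Control kidneys, and all genes were examined. All 10 mice were male C57BL/6 animals (C57BL/6J for the floxed mice in the study's methods) aged 10 to 12 weeks with floxed *Myc* alleles and the Pax8rtTA transgene. KO mice also carried TetOCre, which controls lacked, so that doxycycline switched on the Cre recombinase in Pax8-expressing tubule cells of KO mice alone. Both groups had received doxycycline at 2 mg/ml in the drinking water for 14 days, followed by 1 week without it. Both then underwent 22.5 min of bilateral renal ischemia and 12 h of reperfusion before the kidneys were frozen. No kidney without ischemia was analysed here, and no group carried TetOCre without floxed alleles, so an effect of *Myc* loss cannot be told apart from one of the recombinase. The other 8 kidneys, 5 *Cxcl12* KO and 3 *Cxcl12* Control, came from the same kind of cross with a floxed *Cxcl12* gene and the same injury, and served only as a comparison.

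MYC is a transcription factor that binds DNA as a pair with MAX, with a preference for the E-box CACGTG. In growing cells it raises the expression of genes that make ribosomes, transfer RNAs, nucleotides, polyamines and mitochondrial proteins, while other MAX partners such as the MXD proteins compete for the same sites. Adult kidney tubules hold little MYC, and its gene is among the early genes induced when the organ is injured. Whole kidneys also hold endothelium, stroma and blood cells, in which Pax8 does not drive the recombinase, so the floxed alleles of those cells are left intact.

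Reads were counted per gene without normalization by the authors, and 12918220 to 29749500 reads per kidney lay on genes. Expression is given below as CPM, read counts scaled to the normalized library size, with the kidneys of each group in the order of their replicate numbers, 1 to 5. After removal of genes with low counts, 14936 genes were tested with the quasi-likelihood test of edgeR, and a gene is called where the p-value adjusted by the Benjamini-Hochberg method was under 0.05. Log2 fold changes are KO against control. In bulk kidney RNA, fewer cells of a type and less RNA per cell cannot be told apart. The labels number the mice but do not say how they were housed or processed, so p-values measure the spread between these 10 kidneys. No 2 kidneys of a group agreed within sampling noise, the chi-square per degree of freedom over genes being at least 5.77 for each pair. Reads outside annotated genes made up 6.01% to 7.07% in KO and 4.77% to 6.24% in control kidneys (exact permutation p = 0.032, two-sided), and the TMM scaling factors were 0.979 to 0.998 in KO and 1.002 to 1.023 in control kidneys (exact permutation p = 0.0079). The part of these shifts in the changes below was not tested. With the size factors of DESeq2 in edgeR 189 genes were lower and 53 higher, and with upper-quartile factors 249 and 54.

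*Myc* (ENSMUSG00000022346) lies on chromosome 15 of GRCm38 from 61985391 to 61990374 on the plus strand. It had 36.9, 29.03, 29.5, 26.5 and 32.5 CPM in the KO kidneys and 116, 92.9, 85.2, 98.3 and 79.6 CPM in the control kidneys. Every KO kidney lay below every control kidney, and the fall was 67.3% (log2 fold change -1.61, standard error 0.12, edgeR adjusted p = 8.8e-05, exact permutation p = 0.0079, two-sided, the smallest that 5 against 5 kidneys allow). The call held when any 1 of the 10 kidneys was left out. Of the other 14 members of a list of MYC and MAX network genes, 1 passed the test. This was *Pvt1* (ENSMUSG00000097039), a long non-coding RNA gene that starts 52595 bases beyond the start of *Myc* on the same strand, from 62037986 to 62378096. It had 7.64, 8.69, 7.87, 7.85 and 6.59 CPM in the KO kidneys and 2.95, 3.15, 2.65, 2.57 and 2.07 CPM in the control kidneys. All KO kidneys lay above all controls (log2 fold change 1.52, standard error 0.14, edgeR adjusted p = 0.0007). *Mycn*, the paralog of *Myc*, had 8.303 ± 1.67 CPM in KO and 5.34 ± 1.19 CPM in control kidneys (SD, n = 5 each) and did not pass (log2 fold change 0.63, standard error 0.18, edgeR adjusted p = 0.091). *Max*, the common partner, had 51.03 ± 3.43 CPM in KO and 55.7 ± 4.12 CPM in control kidneys (SD, n = 5 each, log2 fold change -0.13, standard error 0.07, edgeR adjusted p = 0.34). *Mxd1*, a competing partner of MAX, had 39.2 ± 6.69 CPM in KO and 23.9 ± 8.497 CPM in control kidneys (SD, n = 5 each, log2 fold change 0.72, standard error 0.21, edgeR adjusted p = 0.097). The log2 fold changes of the 13 network genes that did not pass ran from -0.21 for *Mlx* to 0.72 for *Mxd1*.

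**Figure D1:**
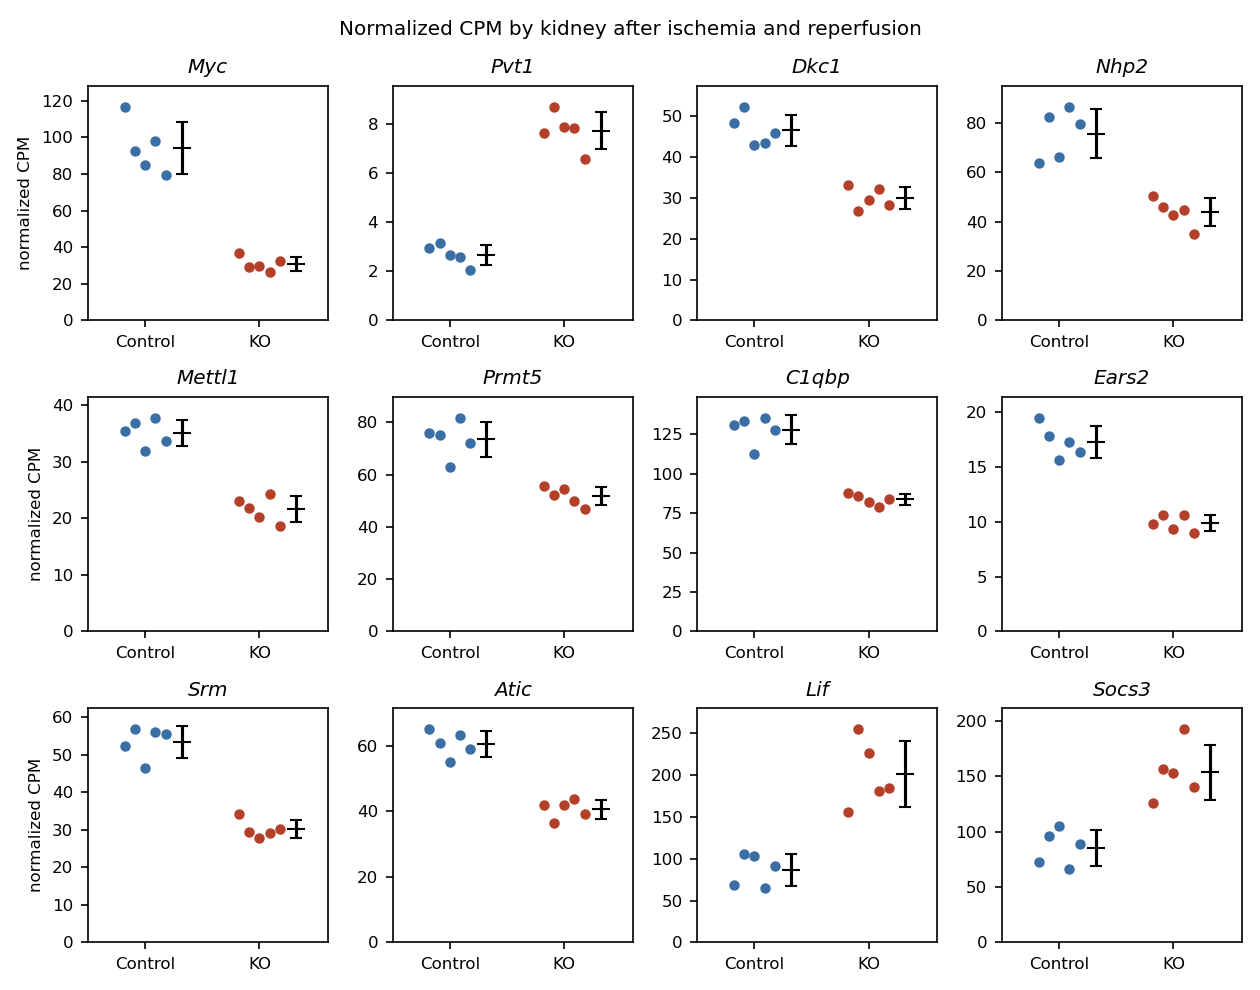
Normalized CPM (vertical axes, linear, from 0) of 12 genes in each kidney, with controls in blue, KO in red, and the mean and SD (n = 5) as black marks. In each panel the 5 KO kidneys lie wholly below the controls, except for *Pvt1*, *Lif* and *Socs3*, where they lie wholly above.

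Across the transcriptome, 193 genes were lower (1.29% of those tested) and 53 higher (0.355%) in KO kidneys. Changes other than that of *Myc* were mostly moderate. The median fall among the called genes was 28.4% and the median rise 46.9%, and the smallest called changes were -0.28 and 0.34 on the log2 scale. In 190 of the 193 falling genes all KO kidneys lay below all controls, and in 51 of the 53 rising genes all lay above. Over all tested genes such a separation was seen in 3.74% below and 2.12% above. Of the 193 falling genes, 96 belonged to lists of growth and metabolic genes. These lists describe ribosome making, transfer RNAs, translation, nucleotide and amino acid metabolism, polyamines, protein folding, nuclear transport and mitochondria. They also cover splicing, the proteasome, the cell cycle, nutrient carriers, energy metabolism, cholesterol and the MYC and MAX network. *Myc* itself, on the network list, is thus among the 96. The 96 are 49.7% of the falling genes, against 8.37% of all genes tested (1250 genes), on lists chosen with earlier results of these data known. Of the 53 rising genes 1 was on these lists, *Pvt1*, as a member of the network list. The median log2 fold change of all genes was -0.00, and 50.1% were below 0. The number of calls depended strongly on single kidneys. It was 210, 21, 29, 54 and 78 without KO 1, 2, 3, 4 or 5, in that order. Without control 1, 2, 3, 4 or 5 it was 277, 35, 877, 96 and 108. In each of these fits more genes were lower than higher, but the excess was not stable. Without control 3 the numbers were nearly equal (444 lower and 433 higher), while in the other fits just listed 71.5% to 81.5% of the calls were lower. With all kidneys, 1679 lower and 1589 higher genes had an unadjusted edgeR p under 0.05, so the excess of falls was much smaller at that level. The share of unmapped reads divided each group into kidneys under 5% (KO 3 and 5, control 1 and 3) and at least 5% (the others). All 246 genes were called again with this division as a term. In the kidneys with at least 5%, 192 of the falling and 53 of the rising genes kept their direction, and 193 and 53 in the others. This was largely fixed in advance, since the same kidneys gave the calls and most called genes did not overlap between groups. Fitted alone, the kidneys with at least 5% gave 8 called genes and the others 0. DESeq2 called 650 lower and 489 higher genes, among them 191 of the 193 and 52 of the 53.

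**Figure D2:**
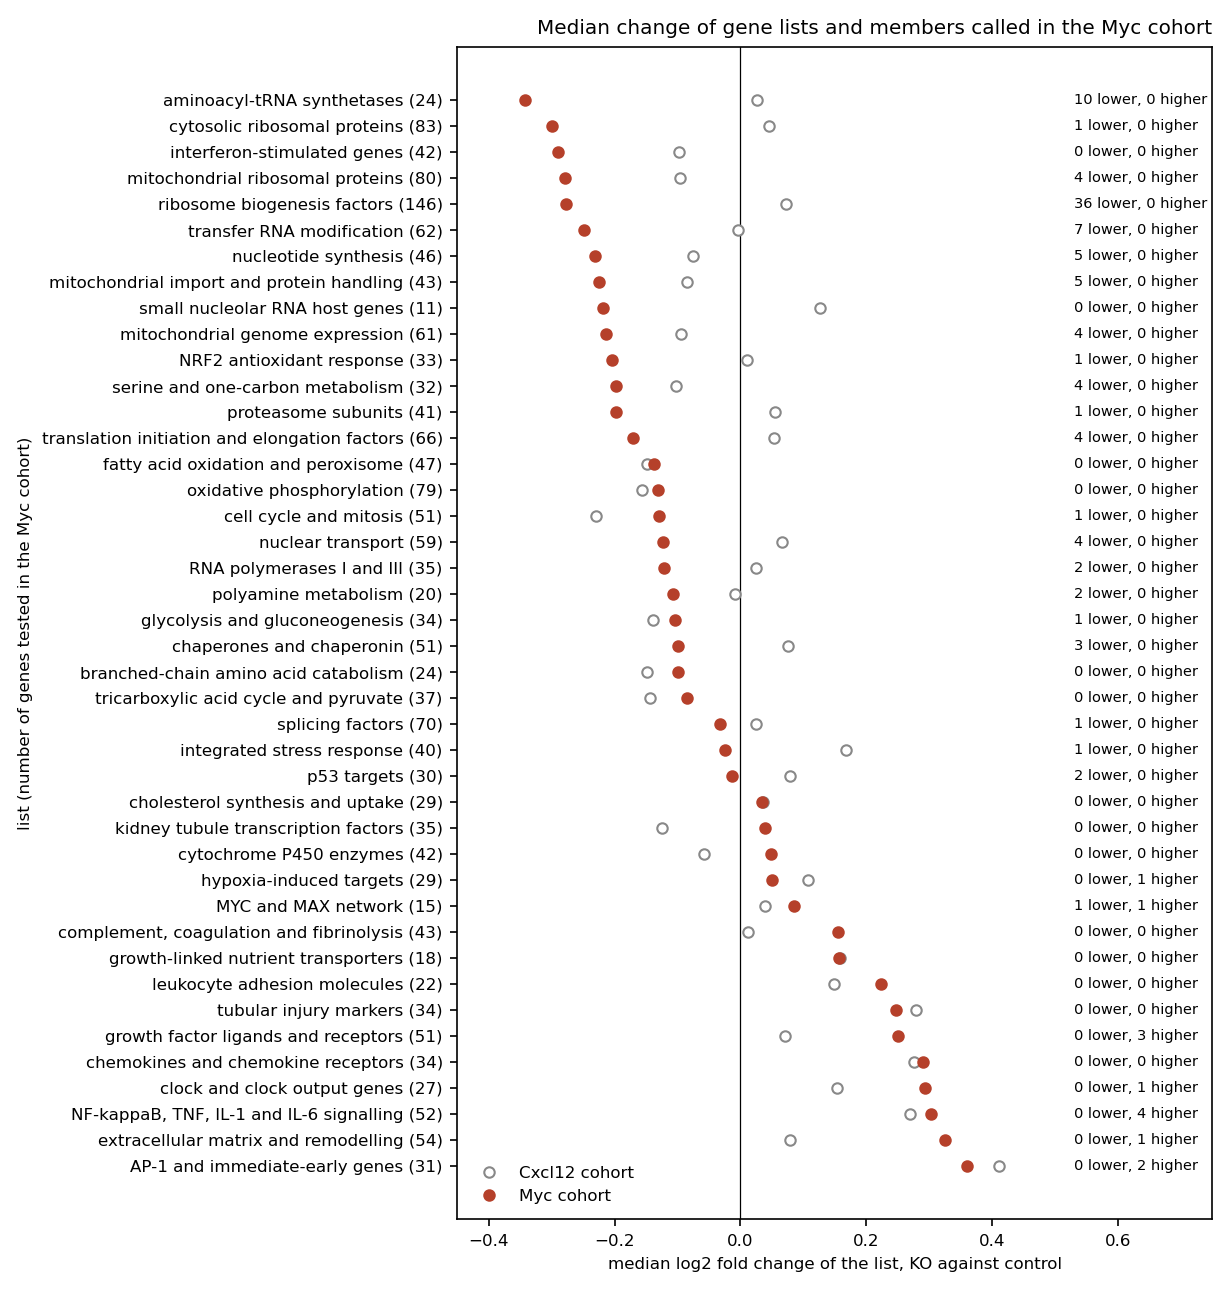
Median log2 fold change of 42 gene lists in the *Myc* cohort (red) and in the *Cxcl12* cohort (open circles), KO against control, with the number of genes tested in the *Myc* cohort in parentheses and the members called there at the right. Lists of ribosome, transfer RNA and mitochondrial ribosome genes lie near -0.3 in the *Myc* cohort, and the lists of AP-1 and immediate-early genes and of NF-kappaB, TNF, IL-1 and IL-6 signalling near 0.3, while interferon-stimulated genes lie at -0.29.

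The sequence around the start of the falling genes was examined for the E-box CACGTG, which reads the same on both strands. RefSeq promoter windows (GRCm38.p6) of 300 bases, 250 before and 50 after each annotated start, were matched by symbol for 162 of the 193 falling, 37 of the 53 rising and 11119 of all tested genes. An E-box was present in 44 falling genes (27.2%, 95% Wilson interval 20.9% to 34.5%), against 11.4% of tested genes and 8.09% of all 27025 genes in the table. It was present in 2 of the 37 rising genes (5.41%, 1.495% to 17.7%). Among all tested ribosome biogenesis factors with a window, called or not, 20.8% of 120 had an E-box. For aminoacyl-tRNA synthetases it was 25% of 16, for nucleotide synthesis 17.1% and for transfer RNA modification 16.4%. Cytosolic ribosomal proteins had 9.68%, oxidative phosphorylation genes 7.69% and mitochondrial ribosomal proteins 7.25%. The part of gene class in the share of falling genes was not tested. With the larger set of calls from the fit with the share of unmapped reads as a term, an alternative chosen after seeing the data, an E-box was present in 19.5% of 476 falling and 13.7% of 271 rising genes. In the first 50 bases after the start, 14.2% of falling genes (9.65% to 20.4%) and 1.79% of tested genes held one. An E-box after the start alone was found in 12.3% of falling genes, 10.8% of ribosome biogenesis factors and 1.77% of tested genes. Farther upstream, from 250 to 101 bases before the start, the shares per 50 bases were 0.617% to 3.09% for falling and 1.33% to 1.997% for tested genes. With bases before the start alone, 14.8% of falling and 9.64% of tested genes had an E-box. A palindrome of the same letters, GTGCAC, which can overlap an E-box, was found in 6.79% of falling and 7.105% of tested genes. Another E-box, CAGCTG, was found in 8.64% and 18.3%. The median GC content of the windows was 60.00% for falling and 60.7% for tested genes. The intervals cover counting error only, and a match says nothing of binding.

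The following 30-base stretches show E-boxes of falling genes from several functions, with the motif in capitals and its first base counted from the start (positive numbers lie in the transcript). The first 9 lie within the first bases of the transcript, and the next 2 just before it.
*Ears2* (chr7:122067048-122067077, minus strand, E-box from base 22): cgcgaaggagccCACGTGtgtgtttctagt
*Timm10* (chr2:84827037-84827066, plus strand, E-box from base 29): ccggaagtgaccCACGTGcttcttatttcg
*Rpp38* (chr2:3332601-3332630, minus strand, E-box from base 11): tcagtgcaggcgCACGTGgagcgggcgcag
*Mettl1* (chr10:127041950-127041979, plus strand, E-box from base 31): agctcggctctcCACGTGgactgcgtggca
*Trmt61a* (chr12:111678118-111678147, plus strand, E-box from base 26): ccgccgtggagcCACGTGtggagccgggag
*Trp53* (chr11:69580357-69580386, plus strand, E-box from base 11): actttcccctccCACGTGctcaccctggct
*Wdr77* (chr3:105959495-105959524, plus strand, E-box from base 10): gcagaggtacacCACGTGtgcggtccctcc
*Pus7* (chr5:23783666-23783695, minus strand, E-box from base 29): ggcgcagcgccgCACGTGtgcgagcccggc
*Pes1* (chr11:3963965-3963994, plus strand, E-box from base 3): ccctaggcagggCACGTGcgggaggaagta
*Prmt3* (chr7:49778333-49778362, plus strand, E-box from base -13): gccccctacgccCACGTGacccggaagcgc
*Atic* (chr1:71557137-71557166, plus strand, E-box from base -7): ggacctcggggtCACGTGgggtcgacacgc
*Apex1*, which codes for a DNA repair endonuclease, and *Cdk4*, which codes for a cell cycle kinase, are shown because their windows held several E-boxes each.
*Apex1* (chr14:50924913-50924942, plus strand, E-box from base -24): gcgctccagaacCACGTGggggcggagccc
*Apex1* (chr14:50924937-50924966, plus strand, E-box from base 1): gagccctcgaatCACGTGaccacaccaatc
*Apex1* (chr14:50924958-50924987, plus strand, E-box from base 22): acaccaatcgccCACGTGggaacaggcaga
*Cdk4* (chr10:127063351-127063380, plus strand, E-box from base -172): atggcagccagtCACGTGccacacagcgta
*Cdk4* (chr10:127063405-127063434, plus strand, E-box from base -118): aagtcaaggggtCACGTGggatagcaacag
*Cdk4* (chr10:127063425-127063454, plus strand, E-box from base -98): atagcaacaggtCACGTGgccgtcagggcc
*Cdk4* (chr10:127063512-127063541, plus strand, E-box from base -11): aagggtgaagatCACGTGtccagaacgtcc

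**Figure D3:**
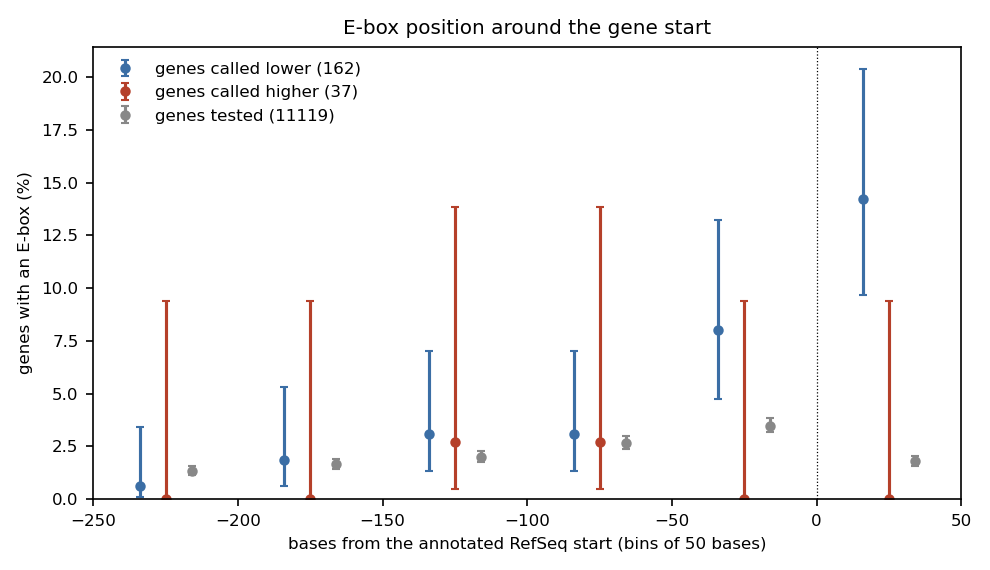
Share of genes with an E-box (vertical axis, percent, from 0) in each 50-base bin around the annotated start (horizontal axis, bases), for genes called lower, genes called higher and all genes tested, with 95% Wilson intervals. Falling genes lie above tested genes in the bin just before the start and in the bin after it.

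Ribosome biogenesis factors gave the largest number of falling genes of any list. Of 146 tested, 36 were lower and none was higher, against 1.29% and 0.355% of all genes. Their median log2 fold change was -0.28, 138 of the 146 were below 0, and in 55 all KO kidneys lay below all controls (3.74% of all genes did). Leaving out 1 kidney gave 5 (without KO 2 or KO 3) to 52 (without control 3) members called lower and medians from -0.30 to -0.26. The 4 core proteins of the box H/ACA particles, which guide the conversion of uridine to pseudouridine in ribosomal RNA, all fell. *Dkc1*, the enzyme among them, had 33.2, 26.7, 29.5, 32.1 and 28.2 CPM in the KO kidneys and 48.5, 52.2, 42.97, 43.5 and 45.9 CPM in the control kidneys (log2 fold change -0.64, standard error 0.08, edgeR adjusted p = 0.0079). *Nhp2* had 50.5, 46.1, 42.9, 44.9 and 34.8 CPM in the KO kidneys and 63.9, 82.4, 66.4, 86.4 and 79.5 CPM in the control kidneys (log2 fold change -0.79, standard error 0.11, edgeR adjusted p = 0.011). The groups did not overlap in either gene, nor in *Nop10* or *Gar1*, which had log2 fold changes of -0.50 and -0.44. The 3 proteins of the PeBoW complex, which acts in maturation of the large subunit, fell too, *Wdr12* (-0.57), *Bop1* (-0.43) and *Pes1* (-0.39). Among the 4 core proteins of the box C/D particles, which guide methylation of ribosomal RNA, *Nop56* fell (log2 fold change -0.59, standard error 0.09, edgeR adjusted p = 0.012). The other box C/D proteins were below 0 without passing, from -0.36 for *Fbl*, the methyltransferase, to -0.31 for *Snu13*. These complexes were picked after the values had been seen, but with all of their members.

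Further falling genes of ribosome assembly were *Mybbp1a* (-0.54), *Grwd1* (-0.64), *Pa2g4* (-0.41) and *Brix1* (-0.34). *Npm1*, which codes for the abundant nucleolar chaperone nucleophosmin, had 93.9 ± 7.35 CPM in KO and 130.4 ± 7.72 CPM in control kidneys (SD, n = 5 each, log2 fold change -0.47, standard error 0.07, edgeR adjusted p = 0.013). All KO kidneys lay below all controls for these 5 genes. Of 35 subunits and factors of RNA polymerases I and III 2 were lower (5.71%, against 1.29% of all genes), and the list had a median of -0.12. They were *Polr1e* and *Polr1b*, for subunits of the polymerase that transcribes ribosomal RNA, which fell by 0.67 and 0.59 on the log2 scale. All 6 subunits found only in RNA polymerase I were below 0, and the others did not pass. The 83 cytosolic ribosomal protein genes had a median log2 fold change of -0.30, with 76 below 0. Of these, 1 was called lower (1.205%, against 1.29% of all genes), 49 had an unadjusted p under 0.05, and the number called was 25 with DESeq2, 30 with the share of unmapped reads as a term and 20 without control 1. These genes have many processed pseudogenes of near-identical sequence, which can take or split their reads, so their values are uncertain.

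By share of members called, genes for the loading of transfer RNAs had 41.7%, beside 24.7% of ribosome biogenesis factors and 1.29% of all genes. Of 24 genes of the aminoacyl-tRNA synthetases, which load transfer RNAs with amino acids, and of their scaffold proteins, 10 were lower, 24 of 24 were below 0, and the median was -0.34. Leaving out 1 kidney gave 0 (without KO 2, KO 3 or control 2) to 13 (without control 3) called members, while the median stayed between -0.36 and -0.31. The largest falls were those of *Eef1e1* and *Aimp2*, scaffold proteins of the complex that holds several synthetases together. *Eef1e1* had 29.8, 26.1, 27.8, 21.9 and 27.98 CPM in the KO kidneys and 43.3, 44.1, 34.9, 47.9 and 39.05 CPM in the control kidneys (log2 fold change -0.65, standard error 0.10, edgeR adjusted p = 0.014), without overlap of the groups. *Aimp2* had a log2 fold change of -0.65. *Vars* (-0.39), *Farsb* (-0.49) and *Yars* (-0.46), for the valine, phenylalanine and tyrosine enzymes, fell as well. Of 11 members of the multisynthetase complex 4 passed, against 1.29% of all genes called lower, and 11 were below 0, from -0.65 to -0.03.

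Enzymes that modify transfer RNA fell in 7 of 62 cases (11.3%, against 1.29% of all genes), with 59 below 0 and a median of -0.25. *Mettl1*, the enzyme that places 7-methylguanosine in transfer RNAs, had 23.00, 21.9, 20.2, 24.4 and 18.6 CPM in the KO kidneys and 35.3, 36.9, 31.8, 37.7 and 33.7 CPM in the control kidneys (log2 fold change -0.70, standard error 0.09, edgeR adjusted p = 0.0069). Its partner *Wdr4* had 27.1 ± 2.37 CPM in KO and 36.3 ± 2.500 CPM in control kidneys (SD, n = 5 each, log2 fold change -0.42, standard error 0.08, edgeR adjusted p = 0.028). Both parts of this 2-protein enzyme thus passed, without overlap of KO and control kidneys. *Pus7*, a pseudouridine synthase (-0.44), *Nsun2*, a cytosine methyltransferase (-0.37), and *Trmt61a*, which methylates adenosine (-0.67), fell too. *Trmt6*, the partner of *Trmt61a*, did not pass (log2 fold change -0.21, edgeR adjusted p = 0.12). KO and control kidneys overlapped in *Trmt61a* and in *Trmt6*. *Rpp38*, a protein of the RNases P and MRP that trim transfer and ribosomal RNA precursors, and named after its values were seen, had 4.73 ± 0.134 CPM in KO and 8.13 ± 1.39 CPM in control kidneys (SD, n = 5 each, log2 fold change -0.77, standard error 0.13, edgeR adjusted p = 0.019). All 11 proteins of these particles were below 0, and 2 passed, against 1.29% of all genes called lower. Among 66 translation initiation and elongation factors, leaving out 1 kidney gave 0 to 10 called members. It gave 0 without KO 2, 3 or 4 or control 2 or 4. With all kidneys 4 were lower (6.06%, against 1.29% of all genes), with a median of -0.17. They were *Eif2s1*, a subunit of the factor that brings the initiator transfer RNA (-0.39), *Eif2b1* (-0.30) and *Eif2b3* (-0.40), subunits of its exchange factor, and *Eif4ebp1*, a repressor of cap binding (-0.39). The other subunits of the exchange factor, *Eif2b2*, *Eif2b4* and *Eif2b5*, did not pass (-0.21 to -0.18), and their groups overlapped.

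**Figure D4:**
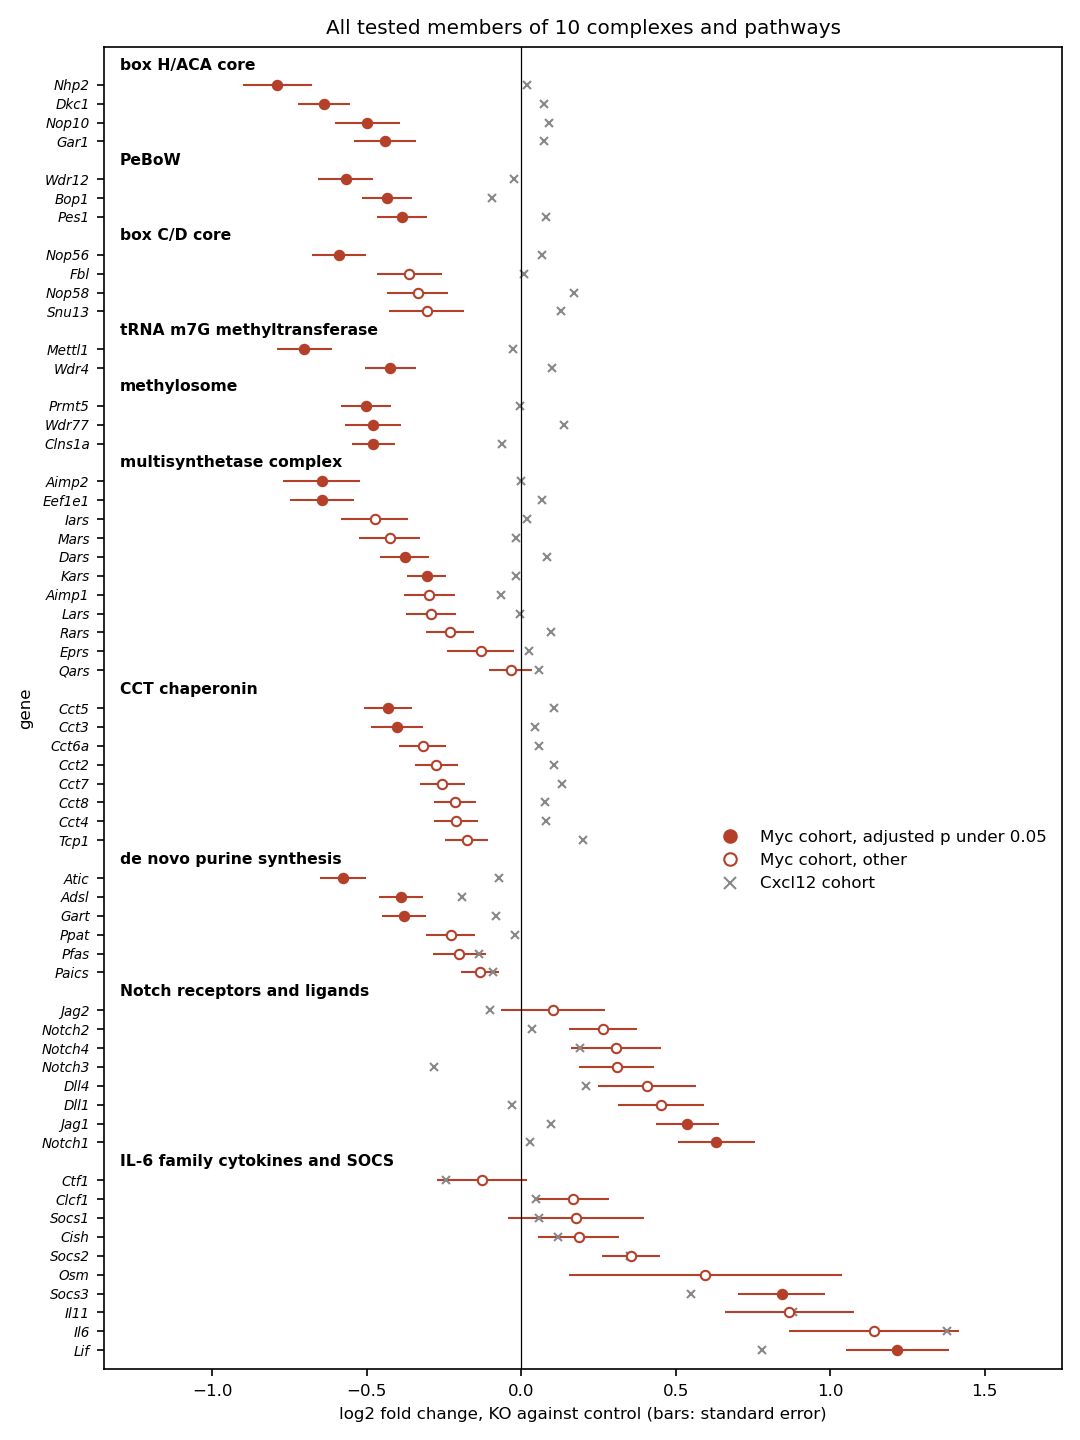
Log2 fold changes of all tested members of 10 complexes and pathways in the *Myc* cohort (circles, filled where the adjusted p was under 0.05, bars for the standard error) and, where tested, the *Cxcl12* cohort (crosses). All members of the 3 complexes H/ACA core, PeBoW and methylosome passed in the *Myc* cohort, and their values in the *Cxcl12* cohort lay between -0.09 and 0.14.

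Called genes also included some of protein arginine methylation and of the assembly of spliceosomal particles, which were grouped after the values had been seen. *Prmt5*, the enzyme of the methylosome, had 55.6, 52.3, 54.5, 49.95 and 46.8 CPM in the KO kidneys and 75.8, 75.02, 62.99, 81.6 and 72.05 CPM in the control kidneys (log2 fold change -0.50, standard error 0.08, edgeR adjusted p = 0.014). Its partners *Wdr77* and *Clns1a*, which present spliceosomal proteins to the enzyme, fell by 0.48 and 0.48 on the log2 scale. The groups did not overlap in any of the 3 genes. *Prmt3*, whose enzyme methylates a ribosomal protein and which was also picked after its values were seen, had 20.4 ± 1.32 CPM in KO and 34.9 ± 4.64 CPM in control kidneys (SD, n = 5 each, log2 fold change -0.77, standard error 0.10, edgeR adjusted p = 0.0069). *Gemin6*, of the SMN complex that receives the methylated proteins, had 2.72 ± 0.431 CPM in KO and 4.78 ± 1.01 CPM in control kidneys (SD, n = 5 each, log2 fold change -0.82, standard error 0.18, edgeR adjusted p = 0.041). Splicing factors as a list fell in 1 of 70 cases (1.43%, against 1.29% of all genes). Their median was -0.03, close to that of all genes.

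Some genes of mitochondrial import and translation were called. Of 43 genes of mitochondrial import and protein handling 5 were lower (11.6%, median -0.22, 41 below 0). Of 80 mitochondrial ribosomal proteins 4 were lower (5%, median -0.28, 80 below 0). Of 61 genes of mitochondrial genome expression 4 were lower (6.56%, median -0.21, 53 below 0). Among all genes 1.29% were lower. *C1qbp*, a matrix protein needed for mitochondrial translation, had 87.8, 86.1, 82.1, 78.8 and 84.1 CPM in the KO kidneys and 131, 133, 112, 135 and 128 CPM in the control kidneys (log2 fold change -0.61, standard error 0.07, edgeR adjusted p = 0.0043). *Timm10*, a chaperone of the space between the membranes, had 16.2, 15.4, 14.8, 14.6 and 12.5 CPM in the KO kidneys and 22.8, 29.5, 22.2, 28.4 and 24.00 CPM in the control kidneys (log2 fold change -0.79, standard error 0.11, edgeR adjusted p = 0.01). *Ears2*, which loads mitochondrial transfer RNA with glutamate, had 9.77, 10.6, 9.37, 10.6 and 9.03 CPM in the KO kidneys and 19.5, 17.9, 15.6, 17.3 and 16.4 CPM in the control kidneys (log2 fold change -0.81, standard error 0.09, edgeR adjusted p = 0.0043). In each of these 3 genes the KO kidneys lay wholly below the controls. *Tomm5*, a small part of the outer membrane import pore (-0.82), *Chchd4*, which oxidizes imported proteins (-0.55), *Mrpl36* (-0.59) and *Yars2*, the mitochondrial tyrosine enzyme (-0.48), fell as well. Of the mitochondrial ribosomal proteins 0 to 21 were called when 1 kidney was left out, 21 of them without control 3.

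Few genes of energy metabolism passed. None of 79 oxidative phosphorylation genes was called (median -0.13, 75 below 0, 5 at an unadjusted p under 0.05, none with DESeq2). None of 37 genes of the tricarboxylic acid cycle (median -0.09, 1 at an unadjusted p under 0.05), 47 of fatty acid oxidation and peroxisomes (median -0.14, 8) and 24 of branched-chain amino acid catabolism (median -0.10, 2) was called in edgeR, while DESeq2 called 1, 5 and 0 of them. *Idh3a*, a subunit of isocitrate dehydrogenase, had 151 ± 12.8 CPM in KO and 189 ± 11.3 CPM in control kidneys (SD, n = 5 each) and did not pass (log2 fold change -0.32, standard error 0.08, edgeR adjusted p = 0.061). *Pex11a*, of peroxisome division, had 82.4 ± 10.8 CPM in KO and 135 ± 38.9 CPM in control kidneys (SD, n = 5 each, log2 fold change -0.71, standard error 0.18, edgeR adjusted p = 0.065). Of 34 glycolysis and gluconeogenesis genes *Pck2*, the mitochondrial form of a gluconeogenic enzyme, was lower (log2 fold change -0.62, standard error 0.12, edgeR adjusted p = 0.031). This was 2.94% of the list, against 1.29% of all genes, and the list had a median of -0.10 with 20 below 0.

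Genes for the synthesis of nucleotides, one-carbon units and polyamines were among those that fell. *Srm*, spermidine synthase, had 34.2, 29.5, 27.8, 29.2 and 30.4 CPM in the KO kidneys and 52.3, 56.8, 46.5, 56.2 and 55.6 CPM in the control kidneys (log2 fold change -0.82, standard error 0.08, edgeR adjusted p = 0.001). *Atic*, which carries out the last steps of purine synthesis, had 42.1, 36.4, 41.9, 43.6 and 39.1 CPM in the KO kidneys and 65.02, 60.9, 54.9, 63.3 and 58.9 CPM in the control kidneys (log2 fold change -0.58, standard error 0.07, edgeR adjusted p = 0.0073). The KO kidneys lay below all controls in both genes, and both calls held with any 1 kidney left out. Of the 6 enzymes of new purine synthesis *Adsl* (-0.39) and *Gart* (-0.38) fell with *Atic*, and the other 3 were below 0. *Cad*, which starts pyrimidine synthesis, had 30.2 ± 2.26 CPM in KO and 44.1 ± 3.04 CPM in control kidneys (SD, n = 5 each, log2 fold change -0.55, standard error 0.08, edgeR adjusted p = 0.011). *Umps* (-0.36) and *Dhodh* (-0.18), of the same pathway, did not pass (edgeR adjusted p = 0.084 and 0.40). Of the 46 genes of nucleotide synthesis 5 were lower (10.9%, against 1.29% of all genes) and none higher (median -0.23). In serine and one-carbon metabolism 4 of 32 were lower (12.5%, median -0.20). The first enzyme of serine synthesis, *Phgdh* (-0.70), and the mitochondrial folate enzyme *Mthfd2* (-0.68) showed the largest falls. *Psat1* (-0.44) and *Psph* (-0.29), also of serine synthesis, did not pass (edgeR adjusted p = 0.11 and 0.20). None of the 32 was called without control 2 or 4 or without KO 2, 3, 4 or 5, and 6 were without control 3. Of 20 polyamine genes 2 were lower (10%), *Srm* and *Mtap* (-0.43), which recycles a by-product of spermidine synthesis. Of 18 carriers that bring nutrients into growing cells none was called (median 0.16, 3 at an unadjusted p under 0.05, 1 with DESeq2).

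Fewer members were called on the lists of nuclear transport, protein folding and the cell cycle. Of 59 nuclear transport genes 4 were lower (6.78%, against 1.29% of all genes, median -0.12). They were the GTPase *Ran* (-0.47), its regulator *Ranbp1* (-0.44), the importin *Ipo4* (-0.48) and the pore protein *Nup210* (-0.72). *Ranbp1* had 64.1, 61.1, 66.4, 60.4 and 68.4 CPM in the KO kidneys and 80.1, 92.5, 90.1, 84.5 and 88.3 CPM in the control kidneys, with no overlap. Of 51 chaperone genes 3 were lower (5.88%), *Cct5* (-0.43) and *Cct3* (-0.40) of the chaperonin CCT and *Dnaja3* (-0.46). None of the 51 was called without KO 2, 3, 4 or 5 or without control 2. All 8 CCT subunits were below 0, from -0.43 to -0.18. Of 41 proteasome genes *Psme3*, a proteasome activator, was lower (-0.31). This was 2.44%, against 1.29% of all genes, and 39 of the 41 were below 0. *Cdk4* was the only one called of 51 cell cycle genes (1.96%, against 1.29% of all genes), at 63.2 ± 3.21 CPM in KO and 81.1 ± 7.84 CPM in control kidneys (SD, n = 5 each, log2 fold change -0.36, standard error 0.08, edgeR adjusted p = 0.039). *Trp53*, which codes for the tumour suppressor p53 and is named after its values were seen, had 42.7 ± 2.94 CPM in KO and 60.5 ± 5.27 CPM in control kidneys (SD, n = 5 each, log2 fold change -0.50, standard error 0.08, edgeR adjusted p = 0.014). Of 30 p53 targets *Phlda3* (-0.57) and *Aen* (-0.48) were lower (6.67%, against 1.29% of all genes). *Aen* also counts as a ribosome factor, and the list's median was -0.01. *Apex1*, named for its E-boxes after the values were seen, had 8.59, 7.01, 6.69, 8.96 and 6.24 CPM in the KO kidneys and 10.9, 12.9, 9.07, 12.4 and 11.8 CPM in the control kidneys, without overlap (log2 fold change -0.61, standard error 0.14, edgeR adjusted p = 0.047).

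The largest falls in size were partly of genes with low levels and other functions. *Fut1*, a fucosyltransferase that builds the H antigen, had 0.945, 0.953, 0.819, 0.804 and 0.969 CPM in the KO kidneys and 4.28, 3.81, 1.44, 5.63 and 1.13 CPM in the control kidneys (log2 fold change -1.84, standard error 0.41, edgeR adjusted p = 0.043). Its control kidneys fell into higher and lower values, with 3 and 5 close to the KO kidneys. *Smpdl3b*, a lipid-modifying enzyme of the plasma membrane, had 6.07, 4.93, 4.23, 3.83 and 3.02 CPM in the KO kidneys and 14.6, 13.1, 8.73, 13.04 and 6.52 CPM in the control kidneys (log2 fold change -1.36, standard error 0.24, edgeR adjusted p = 0.022). *Hpdl*, a mitochondrial dioxygenase-like enzyme (-1.26), *2010204K13Rik* (-1.02), the fetal plasma protein gene *Afp* (-0.95) and *Ube2cbp* (-0.94) followed. Each of these 4 genes had a mean under 5 CPM in both groups. *Them6* (-0.82) and *Ece2*, an endothelin-converting enzyme (-0.81), completed the 15 largest falls among called genes with a mean of at least 1 CPM, with *Myc*, *Srm*, *Gemin6*, *Tomm5*, *Ears2*, *Nhp2* and *Timm10*. Among oxidant defence genes *Gstp1*, a glutathione transferase, was the 1 of 33 called (3.03%, against 1.29% of all genes). It had 70.98 ± 12.8 CPM in KO and 111 ± 22.3 CPM in control kidneys (SD, n = 5 each, log2 fold change -0.65, standard error 0.15, edgeR adjusted p = 0.0497).

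Rising genes were fewer. *Lif*, a cytokine of the IL-6 family, had 156, 255, 227, 182 and 185 CPM in the KO kidneys and 68.3, 106, 103, 64.5 and 90.9 CPM in the control kidneys (log2 fold change 1.22, standard error 0.17, edgeR adjusted p = 0.01). *Socs3*, which is induced by such cytokines and restrains their signalling, had 126, 156, 153, 192 and 139.9 CPM in the KO kidneys and 72.4, 95.8, 105, 65.8 and 88.8 CPM in the control kidneys (log2 fold change 0.84, standard error 0.14, edgeR adjusted p = 0.018). All KO kidneys lay above all controls in both genes. None of 52 genes of NF-kappaB, TNF, IL-1 and IL-6 signalling was called lower (median 0.30, 9 below 0). Of the 52, 4 were higher (7.69%, against 0.355% of all genes). The others were *Rel*, an NF-kappaB subunit (0.64), and *Nfkbiz*, a nuclear modulator of NF-kappaB (0.43). Leaving out 1 kidney gave 1 to 15 called members, 15 without control 3. Of 10 genes for IL-6 family cytokines and SOCS proteins, a group picked after the values were seen, 9 were above 0. *Il6* had 40.1 ± 10.6 CPM in KO and 18.2 ± 7.76 CPM in control kidneys (SD, n = 5 each) and *Il11* 41.9 ± 9.06 CPM in KO and 23.1 ± 6.47 CPM in control kidneys (SD, n = 5 each), and neither passed (edgeR adjusted p = 0.0591 and 0.059).

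Of 31 AP-1 and immediate-early genes, transcription factors induced within minutes of a stimulus, 2 were higher (6.45%, against 0.355% of all genes). In the list 30 were above 0 (median 0.36). *Fos* had 87.04, 111, 133, 109 and 97.7 CPM in the KO kidneys and 36.4, 65.4, 76.9, 64.5 and 67.5 CPM in the control kidneys (log2 fold change 0.79, standard error 0.17, edgeR adjusted p = 0.041). *Fosl2* had 229.9 ± 23.3 CPM in KO and 154 ± 26.2 CPM in control kidneys (SD, n = 5 each, log2 fold change 0.58, standard error 0.12, edgeR adjusted p = 0.032). *Arc*, another early gene, had 33.8, 33.4, 35.2, 37.03 and 30.8 CPM in the KO kidneys and 16.5, 22.4, 20.2, 15.9 and 22.9 CPM in the control kidneys (log2 fold change 0.80, standard error 0.11, edgeR adjusted p = 0.01), again with all KO kidneys above all controls. Leaving out 1 kidney gave 0 to 13 called members of the list, 13 of them without control 3, and 0 without KO 2 to 5 or control 2, 4 or 5. Of 51 growth factor and receptor genes 3 were higher (5.88%, against 0.355% of all genes) and none lower (median 0.25, 5 below 0). Leaving out 1 kidney gave 0 (without KO 2) to 8 (without control 3) called members. *Inhba*, for the activin A subunit, had 8.98, 11.2, 11.7, 8.59 and 5.62 CPM in the KO kidneys and 2.83, 5.19, 5.14, 2.94 and 4.15 CPM in the control kidneys (log2 fold change 1.19, standard error 0.23, edgeR adjusted p = 0.029). *Fgf1* (0.45) and *Pdgfb* (0.44) code for growth factors of fibroblasts and pericytes. *Pdgfb* had 129.6 ± 6.16 CPM in KO and 95.5 ± 5.77 CPM in control kidneys (SD, n = 5 each). The only genes called in their lists were *Stc1*, a secreted hormone (0.67), *Adamts1*, a secreted protease (0.54), and *Cry2*, a clock repressor (0.47). These lists held 29 hypoxia-induced, 54 extracellular matrix and 27 clock genes, with medians of 0.05, 0.32 and 0.29. The shares called higher were 3.45%, 1.85% and 3.70%, against 0.355% of all genes. With 1 kidney left out, 0 to 4, 0 to 10 and 0 to 3 members were called higher, in that order. Matrix genes were called only without control 3 or KO 1, and clock genes only without control 3. limma voom and the fit without a filter called no clock gene. Of the hypoxia-induced genes 13 were below 0. None of 42 interferon-stimulated genes was called with edgeR or DESeq2 (median -0.29, 34 below 0, 4 at an unadjusted p under 0.05), and the median turned to 0.07 without control 1.

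Outside the lists, *Notch1* and its ligand *Jag1* rose, a pair picked after the values were seen. *Notch1* had 68.2, 83.9, 92.2, 91.1 and 76.2 CPM in the KO kidneys and 52.2, 52.3, 63.5, 39.1 and 58.5 CPM in the control kidneys (log2 fold change 0.63, standard error 0.13, edgeR adjusted p = 0.031). *Jag1* had 58.9, 61.6, 70.2, 60.03 and 61.6 CPM in the KO kidneys and 38.4, 41.2, 47.9, 36.2 and 51.5 CPM in the control kidneys (log2 fold change 0.54, standard error 0.10, edgeR adjusted p = 0.025). The groups did not overlap in either, and all 8 Notch receptors and ligands were above 0, from 0.10 for *Jag2* to 0.63. Besides *Pvt1*, *Lif*, *Inhba*, *Socs3*, *Arc* and *Fos*, the 15 largest rises among called genes with a mean of at least 1 CPM were those of *Slc6a14*, an amino acid carrier (1.11), *Chd5*, a chromatin remodeller (1.07), *Igsf9b* (1.07), *Nnat*, a small membrane proteolipid (0.93), *Rgs16*, which shortens G protein signals (0.79), and *Slc6a12*, a betaine carrier (0.72). *Gm15832* (0.70), *Hykk*, a lysine-degrading kinase (0.68), and an identifier without a gene name (ENSMUSG00000091562, 0.74) completed them. *Malat1*, an abundant nuclear RNA named after its values were seen, had 2999 ± 197 CPM in KO and 2042 ± 284 CPM in control kidneys (SD, n = 5 each, log2 fold change 0.55, standard error 0.11, edgeR adjusted p = 0.031). The median exon length of rising genes was 6919 bases against 3249 for falling and 4216.5 for all tested genes, and the part of transcript length in the calls was not tested.

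No gene on the marker lists of 13 cell types was called in either direction with edgeR. DESeq2 called 3 endothelial, 2 proximal tubule, 2 podocyte, 1 loop of Henle, 1 distal tubule and 1 lymphocyte marker higher, and 3 loop of Henle, 2 collecting duct, 1 macrophage and 1 fibroblast marker lower. The summed level of 22 neutrophil markers was 278 to 504 CPM in KO and 139.7 to 444 CPM in control kidneys. Of the 18 tested 17 were above 0 (median 0.66), 3 had an unadjusted p under 0.05, DESeq2 called none, and 9 were called without control 3. Summed endothelial markers (16) were 1844 to 2535 CPM in KO and 1438 to 2249.9 CPM in control kidneys, with a median change of 0.27. Both sums had a higher median in KO kidneys, as the early and inflammatory genes did, and their part in those rises was not tested. Proximal tubule markers (38) summed to 15918 to 25159 CPM in KO and 17045 to 25162 CPM in control kidneys, and all 38 were detected. Their median of 0.02 turned below 0 in 5 of 10 other fits, with -0.07 when the division by unmapped reads was a term. Over the other marker lists with at least 7 tested genes, medians ran from -0.13 for macrophages to 0.20 for podocytes. The 5 tested fat cell markers had a median of 0.42, which turned to -0.51 with limma voom and to -0.64 without KO 5. Of 34 tubular injury markers none was called (median 0.25, 8 at an unadjusted p under 0.05, 1 with DESeq2). *Havcr1*, the gene of the injury marker KIM-1, had 274, 253, 193, 72.4 and 219 CPM in the KO kidneys and 590.3, 622, 208, 896 and 206 CPM in the control kidneys, and controls 3 and 5 lay among the KO kidneys (log2 fold change -1.32, standard error 0.43, edgeR adjusted p = 0.12). *Cxcr4*, the receptor of CXCL12, had 21.2 ± 4.24 CPM in KO and 12.4 ± 3.78 CPM in control kidneys (SD, n = 5 each) and did not pass (log2 fold change 0.78, standard error 0.20, edgeR adjusted p = 0.068).

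At the threshold, *Spryd4* and *Gstp1* were the last genes called, with an edgeR adjusted p of 0.0497 each. *Dnajc11* and *Ddx56* were the first outside it (0.05003 each), with log2 fold changes of -0.35 and -0.37.

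The *Cxcl12* cohort, whose kidneys are all different from those of the *Myc* cohort, gives the values of the same genes after loss of another gene from the tubule. None of 15154 genes was called there with edgeR, and 1976 had an unadjusted p under 0.05. Of the 193 genes that fell in *Myc* KO kidneys, 103 were below 0 in *Cxcl12* KO kidneys, and their median was -0.01, near the 0.00 of all genes. Of the 52 rising genes tested in both cohorts, 48 were above 0, and their median was 0.22, against 7483 of 14727 tested genes above 0. The median of ribosome biogenesis factors was 0.07 there, with 35 of 146 below 0. That of aminoacyl-tRNA synthetases was 0.03. By contrast, AP-1 and immediate-early genes had 0.41 with 30 of 31 above 0, and NF-kappaB and cytokine genes 0.27. Neutrophil markers had 1.74 with 17 of 17 above 0. Mitochondrial ribosomal proteins (-0.10) and oxidative phosphorylation genes (-0.16) were below 0 in both cohorts. The Notch receptors and ligands had a median of 0.03.

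**Figure D5:**
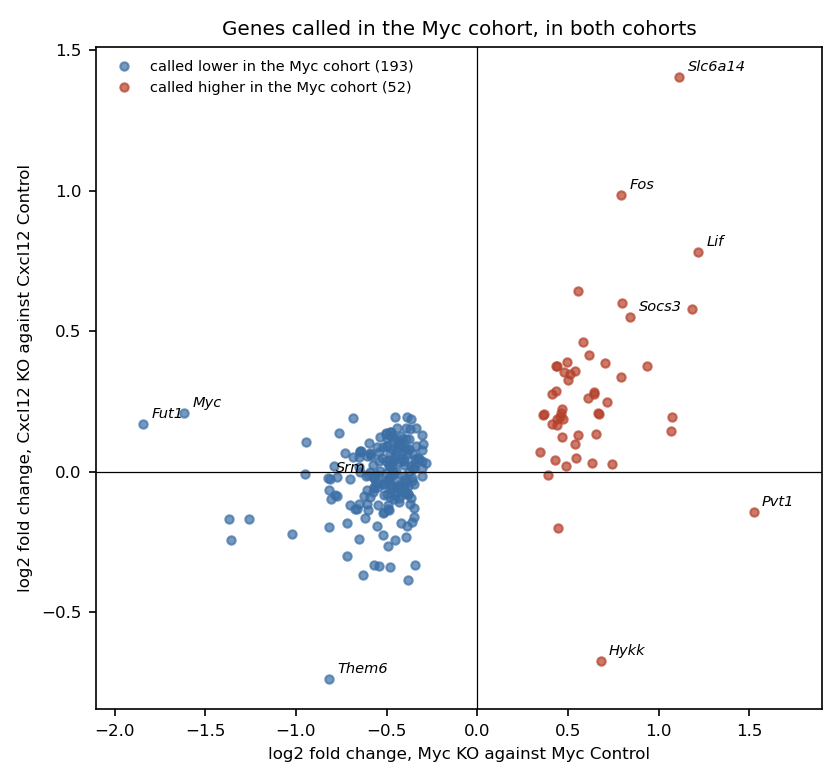
Log2 fold changes of genes called in the *Myc* cohort (horizontal axis) and the same genes in the *Cxcl12* cohort (vertical axis), 193 falling in blue and 52 rising in red. Falling genes scatter around 0 on the vertical axis, and 48 of the 52 rising genes lie above it.

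The difference between the KO effects was tested gene by gene over all 18 kidneys, and 11 of 15903 genes passed (0.0692%). The effect was lower after loss of *Myc* for *Myc*, *Ranbp1*, *Srm*, *Npm1*, *Brix1* and *Rdh11*, of which the first 5 also fell in the *Myc* cohort alone. *Srm* had -0.82 after loss of *Myc* and -0.02 after loss of *Cxcl12*. *Npm1* had -0.47 and 0.14. *Ranbp1* had -0.44 and 0.08. Higher were *Pvt1* (1.52 and -0.14), *Hykk* (0.68 and -0.67), *Hlf* (0.38 and -1.18), *Flrt1* (0.23 and -0.98) and *Gm13412*. For the other falling genes a difference between the cohorts was not shown. Without *Myc* KO 5, 75 genes passed, and without *Cxcl12* control 3, 1 gene did.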

How the data were processed

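Whole-kidney RNA of 5 *Myc* KO and 5 *Myc* Control mice was sequenced. Per the labels and the study's methods, the authors trimmed reads with Trimmomatic 0.32, aligned them to GRCm38 with STAR 2.4.0 and deposited raw read counts per gene. The annotation release is not given in the sources used here. The count that ignores strand was used, and the rows of unmapped, multimapping, no-feature and ambiguous reads were left out of library sizes. Each strand-specific count came to 51.8% to 52.8% of the count that ignores strand, so antisense partners cannot be told apart.

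Genes were filtered with filterByExpr, scaled by TMM and tested with the quasi-likelihood test of edgeR 4.0.16 (R 4.3.3), with Benjamini-Hochberg adjustment and no covariate. The study adjusted for a batch that the labels do not name, and this was not done here. The *Cxcl12* cohort was fitted alone, and the difference between the effects over all 18 kidneys. Permutation tests were exact (scipy 1.17.1). Alternatives used DESeq2 1.42.0, limma 3.58.1, other scaling factors, no filter, a replicate block, the share of unmapped reads as a term, and omission of each kidney. The fits were tested on simulated data. Depth was 12918220 to 29749500 reads on genes.

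The members, gene lists and complexes were chosen with earlier results of these data known. Named were the *Myc* network, the 15 largest changes per direction among called genes with a mean of at least 1 CPM, up to 8 called members per list and direction by p (or the 2 of smallest p where none passed), up to 5 genes per direction that differed between cohorts, and 2 genes on each side of the threshold. Other names carry a remark, and some results are not reported here. Identifiers matched the GENCODE vM21 table for 45143 of 45706 genes.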

Additional observations from a re-analysis of the deposited data

Results flagged for a closer look

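In 234 sets of 5 kidneys, single values were compared with the rest of their group by Dixon's test at the 95% level, which chance exceeds in about 1 of 20 groups, and 8 stood apart. *Nop56* had 46.9 CPM in KO 1, above the other KO kidneys. *Ran* had 86.1 CPM in KO 1, the highest KO value. *Slc6a14* had 7.54 CPM in KO 4, the highest KO value. *Fgf1* had 122 CPM in control 2, the highest control value. *Jag1* had 70.2 CPM in KO 3 and *Cct3* 198 CPM in KO 1, each the highest KO value. *Il11* had 12.0 CPM in control 1, the lowest control value, and *Fbl* 9.24 CPM in control 5, the highest.

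The KO effect differed between the *Myc* and *Cxcl12* cohorts in 11 genes (edgeR adjusted p under 0.05 for the difference itself). As the *Myc* minus the *Cxcl12* effect on the log2 scale, the differences were -1.83 for *Myc*, -0.81 for *Srm*, -0.70 for *Rdh11*, -0.62 for *Npm1*, -0.53 for *Ranbp1* and -0.50 for *Brix1*. They were 1.66 for *Pvt1*, 1.56 for *Hlf*, 1.35 for *Hykk*, 1.21 for *Flrt1* and 4.44 for *Gm13412*. The last gene was too low to be tested within the *Myc* cohort.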

How the results depend on the processing

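The number of called genes was not stable. Their direction in subsets of the kidneys was largely fixed in advance by the separation of the groups. DESeq2 called 1139 genes (650 lower, 489 higher), a fit with the share of unmapped reads as a term 954 (591 and 363), and a fit over all 18 kidneys 683 (465 and 218). The 6 kidneys with at least 5% unmapped reads gave 8 genes (4 and 4), and the 4 with under 5% gave 0 with edgeR (0 lower and 0 higher, 1339 at an unadjusted p under 0.05), both with fewer samples. Leaving out 1 kidney gave 21 to 877 genes, 17 to 444 lower and 4 to 433 higher, the fewest without KO 2 and the most without control 3. The cause was not tested. limma voom, no filter, and DESeq2 or upper-quartile factors gave counts within 1.5 times. The log2 fold change of *Myc* was -1.70 in the 4 kidneys with under 5% unmapped reads, no longer past the threshold. In the same 4 kidneys *Flrt1*, not called in the *Myc* cohort, turned to -0.14. None of 100 other called genes with values in the text reversed, which in subsets of the kidneys was largely fixed in advance. With 1 kidney left out, 19 (without KO 2) to 100 (without control 3) stayed called.

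A fit with a replicate block gave 18 genes (11 lower, 7 higher), 15 of them among the 246, and 1 gene differed between cohorts. Kidneys of the same number had deviations correlated at -0.16 to 0.38, over 0.1 in 2 of 5 pairs. Their mean correlation was 0.055, against -0.012 for kidneys of different numbers. These 5 pairs are too few to settle whether the numbers mark anything shared, which was not tested. The study's methods mention littermates without saying which kidneys came from them. The genes that differed between cohorts numbered 314 with DESeq2, 133 with the unmapped share as a term, and 1 to 75 with 1 kidney left out. The share of falling genes with an E-box was 14.8% with bases before the start alone and, in an alternative chosen after seeing the data, 19.5% with the calls of the unmapped-share fit.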
